A study of Mus musculus with 4 samples.

Results

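The genes described here are Il24, a cytokine of the IL-20 family, and the receptor chains and signalling genes through which keratinocytes answer such cytokines: Il20ra, Il20rb, Il22ra1, Il10rb, Osmr, Il6st, Lifr, Stat3 and Socs3. They were chosen by gene name and make up 10 of the 56953 genes in the count table. Transcripts were sequenced from the back skin of wild type C57BL/6J mice treated topically for 3 days, either with the solvent DMSO or with NEDD8i at 10 µM, with 2 libraries in each group. NEDD8i is identified only by its label, which points to the ubiquitin-like modifier NEDD8. The age of the mice, and whether the replicates are separate mice, are not given in the labels, so p-values measure the spread between these libraries, which may be technical. The genes were proposed with this comparison already in view, Il24 because it stood out in it, so their differences are given as a description, and each adjusted p only places a gene against the threshold used for the whole table.

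IL-24 binds receptors built from IL-20RA with IL-20RB or from IL-22RA1 with IL-20RB, while IL-22RA1 pairs with IL-10RB to bind IL-22. Oncostatin M and LIF bind OSMR or LIFR together with gp130, the product of Il6st. All of these receptors act through Janus kinases, which phosphorylate the transcription factor STAT3, and in epidermis the pathway is known for its part in wound closure, barrier change and psoriasis-like thickening. SOCS3 is switched on by STAT3 and brakes gp130 receptors, and its SOCS box recruits a cullin 5 ubiquitin ligase, a type of ligase that needs NEDD8 on its cullin to be active.

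The libraries held 5955627 and 5639791 counts (DMSO) and 8856572 and 8833217 counts (NEDD8i), in replicate order, of which 52.6% to 61.7% fell on 3 ribosomal RNA genes. Values are given in CPM, counts per 1000000 after adjustment of library totals by TMM factors, and a count of 3 in a library equalled 0.359 to 0.541 CPM. DMSO replicate 1 stood apart in its hair follicle RNA: the 9 hair shaft and root sheath marker genes in the table took 1.59% of its counts outside ribosomal RNA, compared with 0.00455% for DMSO replicate 2, and 0.0035% and 0.102% for NEDD8i replicates 1 and 2. The 6 basal keratinocyte markers took 0.549% in DMSO replicate 1 and 0.955% to 1.17% in the other libraries. Of endothelial markers, 2 to 17 reads were counted per library although the labels speak of full-thickness skin, and the extraction text speaks of cells. In bulk RNA, fewer cells of a type and less RNA per cell cannot be told apart.

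Upstream sequences of 8 of the 10 genes, all but Il24 and Il10rb, were taken from RefSeq's promoter table (build GRCm38.p6, matched by symbol). Those of Il20ra and Il20rb, whose products form a receptor for IL-24, of Stat3 and of its target Socs3 are shown, 250 bases up to the start site and read in the direction of the gene, with matches to 2 motifs in capitals. The motifs, searched on both strands, were the STAT motif TTCNNNGAA and the AP-1 motif TGACTCA, which do not overlap in these windows.
Il20ra, chr10:19712337-19712586, plus strand: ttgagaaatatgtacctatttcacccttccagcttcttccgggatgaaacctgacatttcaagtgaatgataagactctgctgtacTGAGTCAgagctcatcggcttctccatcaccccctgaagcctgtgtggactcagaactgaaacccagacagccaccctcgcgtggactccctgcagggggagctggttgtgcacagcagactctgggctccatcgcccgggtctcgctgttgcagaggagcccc
Il20rb, chr9:100486474-100486723, minus strand: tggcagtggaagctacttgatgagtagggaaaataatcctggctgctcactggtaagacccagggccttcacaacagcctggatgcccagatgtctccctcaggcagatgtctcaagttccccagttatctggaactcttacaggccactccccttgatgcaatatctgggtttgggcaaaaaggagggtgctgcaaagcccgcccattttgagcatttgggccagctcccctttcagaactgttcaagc
Stat3, chr11:100939541-100939790, minus strand: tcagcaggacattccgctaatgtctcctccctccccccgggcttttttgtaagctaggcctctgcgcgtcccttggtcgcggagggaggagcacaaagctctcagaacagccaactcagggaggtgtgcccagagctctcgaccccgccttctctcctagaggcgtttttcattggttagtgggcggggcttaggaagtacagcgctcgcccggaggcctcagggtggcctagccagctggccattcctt
Socs3, chr11:117969367-117969616, minus strand: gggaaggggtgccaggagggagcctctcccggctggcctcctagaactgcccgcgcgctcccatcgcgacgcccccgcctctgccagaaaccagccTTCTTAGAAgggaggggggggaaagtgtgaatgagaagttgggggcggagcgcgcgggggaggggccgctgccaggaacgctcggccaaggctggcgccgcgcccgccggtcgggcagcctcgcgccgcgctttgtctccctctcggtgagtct
Socs3 held 1 STAT motif, TTCTTAGAA, from 154 to 146 bases before its start, and Il20ra held 1 AP-1 motif, in the reverse orientation as TGAGTCA, from 164 to 158 bases before. None of the other windows of these genes, including both start sites of Lifr, held either motif. Over all 32851 windows of that length in the table, 7.02% held the STAT motif and 4.46% the AP-1 motif, and a match is a run of letters, not a shown binding site.

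Il24 was nearly silent in control skin and present in both treated samples. Il20ra and Il20rb, whose products form a receptor for it, stood lower in the treated samples, and Stat3 stood higher. Il24 (ENSMUSG00000026420.17, chromosome 1, 130809811 to 130815191, on the minus strand, with the build taken as GRCm39) had 0 and 2 counts in the DMSO libraries and 91 and 122 in the NEDD8i libraries. These are 0 and 0.361 CPM against 11.3 and 14.6 CPM. Both treated libraries lay far above both controls, whose values were under the 3-count floor. Mean levels were 0.18 ± 0.255 CPM and 12.9 ± 2.36 CPM (SD, n = 2 libraries each), and the ratio was 81.4 (exact 95% counting interval 22.3 to 677), which covers counting error only. The fitted log2 fold change was 6.18 (standard error 0.78, adjusted p = 0.0157 in edgeR), and Il24 entered the test only through its level in the NEDD8i group. It was the only 1 of the 8 members tested to pass an adjusted p of 0.05, a threshold that 0.782% of the 11388 tested genes passed in edgeR, 0.667% as higher and 0.114% as lower. At an unadjusted p under 0.05, 3 members were higher and 2 lower, beside 8.62% and 7.87% of all tested genes. With limma-voom Il24 did not pass (adjusted p = 0.0575). Over all 14 alternative settings its adjusted p ran from 7.57e-14 to that value and its log2 fold change from 5.09 without DMSO replicate 1 to 9.67 without DMSO replicate 2, the control that held both of its reads, where the fold has no control count to rest on.

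**Figure D1:**
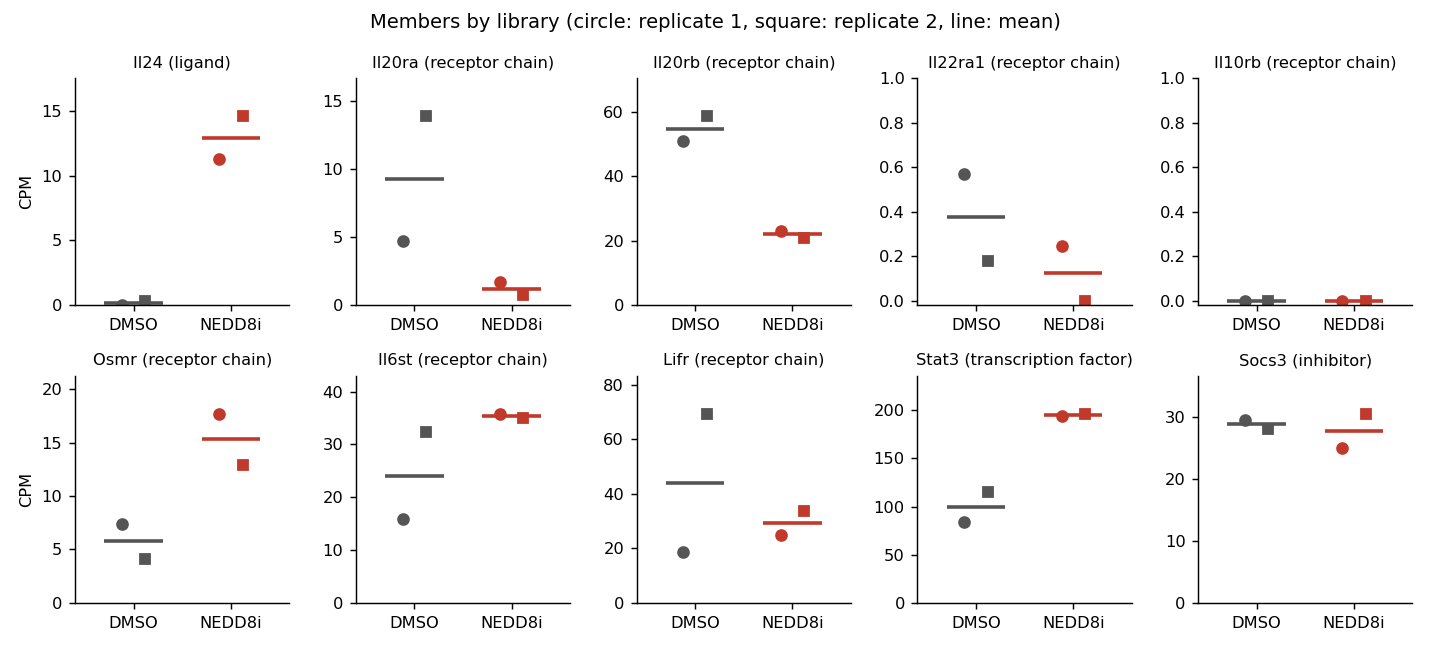
Expression of the 10 members in each library, in CPM on separate linear axes, with DMSO in grey and NEDD8i in red (n = 2 libraries each, lines show means). Il24 went from at most 0.361 CPM to 11.3 and 14.6 CPM, Il20ra and Il20rb lay lower in both NEDD8i libraries, Stat3 and Osmr lay higher, Socs3 overlapped between groups, and Il10rb had no count.

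The sister cytokines beside Il24 on the chromosome did not share its level. Il20, which uses the same receptors, had 0 counts in all 4 libraries, and lies 19531 bases from Il24. Il19, at 45202 bases, had 0 and 0 counts in DMSO against 5 and 0 after NEDD8i. Il10, an anti-inflammatory cytokine 132391 bases away, had 0 and 0 against 2 and 6. Neither Il19 nor Il10 had enough counts to be tested, and the 5 Il19 reads came from NEDD8i replicate 1 alone. Of the 22 other genes within 250 kb of Il24, 9 had no count in any library. Another 5 could be tested, and 0 passed in edgeR, DESeq2 or limma-voom. Among these 5, 1, Yod1, was lower at an unadjusted p under 0.05, beside 7.87% of all tested genes. Mapkapk2, a stress kinase that acts on cytokine mRNA stability, had 198 and 142 counts in DMSO against 366 and 286 after NEDD8i, a log2 fold change of 0.56 (standard error 0.29, adjusted p = 0.393 in edgeR). Its values and those of the deubiquitinase gene Yod1, at a log2 fold change of -0.90 (standard error 0.36, adjusted p = 0.26 in edgeR), were small beside that of Il24. Dyrk3, a kinase gene at the edge of the window, had 3 and 0 counts against 21 and 11 and was not tested.

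**Figure D2:**
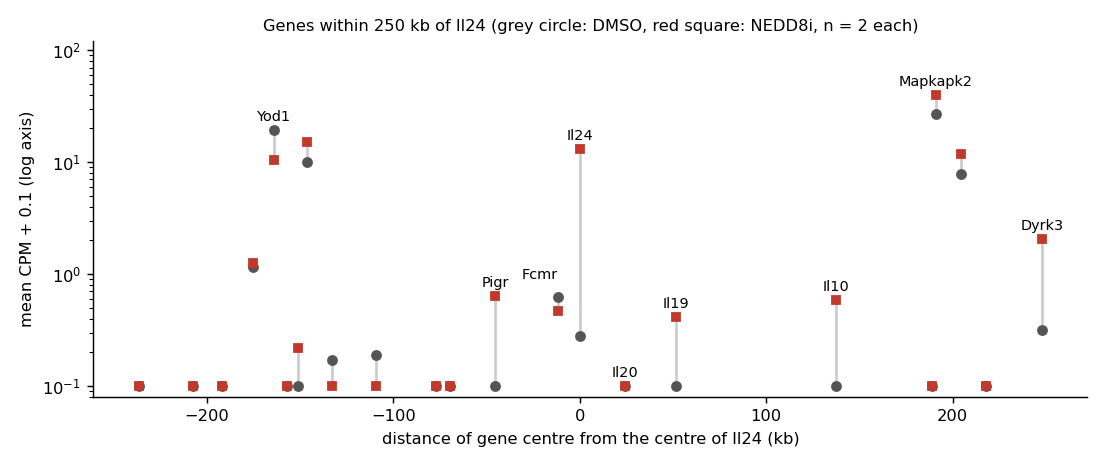
Mean CPM of Il24 and the 22 genes within 250 kb, plotted against the distance between gene centres in kb, on a log axis after adding 0.1 to each mean (grey circles DMSO, red squares NEDD8i, n = 2 libraries each). Il24 has the widest gap between the groups, and Il20 stays at 0 counts.

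The pair of chains that forms the type of receptor shared by IL-19, IL-20 and IL-24 was lower in both treated libraries, short of the threshold. Il20ra (ENSMUSG00000020007.5, chromosome 10, 19588318 to 19635801, plus strand), the alpha chain, had 33 and 77 counts in DMSO against 14 and 6 after NEDD8i, or 4.70 and 13.9 CPM against 1.73 and 0.718 CPM. The groups did not overlap, though the controls differed from each other by a wider ratio than DMSO replicate 1 did from NEDD8i replicate 1. Its log2 fold change was -2.90 (standard error 0.69, adjusted p = 0.0935 in edgeR). Il20ra did not reach the level of the filter on low counts in both NEDD8i libraries, so it entered the test through the DMSO group. Il20rb (ENSMUSG00000044244.19, chromosome 9, 100339772 to 100368841, minus strand), the beta chain common to both IL-24 receptors, had 357 and 325 counts against 186 and 175. These were 50.8 and 58.6 CPM against 23.0 and 20.9 CPM, and both groups were tight and well apart. The log2 fold change of Il20rb was -1.32 (standard error 0.28, adjusted p = 0.0732 in edgeR). Without the hair-rich DMSO replicate 1 the log2 fold changes of Il20ra and Il20rb were -3.50 and -1.43, and without DMSO replicate 2 they were -1.91 and -1.19. DESeq2 placed both past its threshold (adjusted p = 0.0136 for Il20ra and 0.0103 for Il20rb), where 1.57% of the genes it adjusted were called lower, and the replicate number as a block did so for Il20rb alone (adjusted p = 0.0357), with 0.940% of genes called lower.

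The chains that pair for IL-22 were at the limit of detection. Il22ra1 (ENSMUSG00000037157.9, chromosome 4, 135455483 to 135479451, plus strand) had 4 and 1 counts in DMSO against 2 and 0 after NEDD8i, too few to test, and the groups overlapped. Il10rb (ENSMUSG00000022969.14, chromosome 16, 91203123 to 91222722, plus strand) had 0 counts throughout. A level of up to 0.541 CPM is still allowed by that in the shallowest library, DMSO replicate 2. In the annotation used for counting, 1712 of its 1850 exon bases (92.5%) also belong to Gm21970, a gene on the same strand that had 0 counts as well. The sources used here do not say how reads that fit several genes were counted, so a count of 0 does not show that Il10rb was silent. Il22 itself had 0 counts in every library. Ifnlr1, the interferon lambda receptor chain that also pairs with IL-10RB, had 39 and 7 counts in DMSO against 25 and 21 after NEDD8i, and Il22ra2, a soluble decoy for IL-22, had 35 and 7 against 15 and 22. Both were highest in DMSO replicate 1, and neither passed (edgeR adjusted p = 0.876 and 0.791).

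Among the chains for oncostatin M and LIF, Osmr was higher in both treated libraries, Il6st was only slightly above its higher control, and Lifr lay between its controls. Osmr (ENSMUSG00000022146.13, chromosome 15, 6843058 to 6904450, minus strand), which binds oncostatin M with gp130 and IL-31 with IL-31RA, had 52 and 23 counts in DMSO against 143 and 108 after NEDD8i. These were 7.41 and 4.15 CPM against 17.7 and 12.9 CPM, with no overlap. Its log2 fold change was 1.39 (standard error 0.42, adjusted p = 0.155 in edgeR), and 1.87 without DMSO replicate 1, where it passed (adjusted p = 0.003, with 5.62% of genes called higher there). Il6st (ENSMUSG00000021756.13, chromosome 13, 112600604 to 112646620, plus strand), the gp130 chain of the whole family, was at 15.8 and 32.3 CPM in DMSO against 35.8 and 35.1 CPM after NEDD8i. DMSO replicate 2 lay close to the treated pair, and the log2 fold change of 0.56 (standard error 0.37, adjusted p = 0.509 in edgeR) was 0.12 with DMSO replicate 1 left out. With DMSO replicate 2 left out instead it was 1.18, and Il6st passed (adjusted p = 0.0178, with 5.09% of genes called higher there).

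Lifr (ENSMUSG00000054263.13, chromosome 15, 7159040 to 7226970, plus strand), which pairs with gp130 to bind LIF, was split between its controls. It had 132 counts in DMSO replicate 1 and 384 in DMSO replicate 2, and 200 and 281 after NEDD8i, or 18.8 and 69.3 CPM against 24.7 and 33.6 CPM. The treated libraries lay between the controls, and the log2 fold change of -0.59 (standard error 0.56, adjusted p = 0.667 in edgeR) became 0.65 without DMSO replicate 2. With DMSO replicate 1 left out it was -1.26 and Lifr passed as lower (adjusted p = 0.00258, with 4.81% of genes called lower there). Il20ra, Il6st and Lifr were each lower in DMSO replicate 1 than in DMSO replicate 2, as were the basal keratinocyte markers, while hair markers were higher there. The part of this makeup in the results was not tested.

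Stat3 was about as high in one treated library as in the other and above both controls, while Socs3 overlapped between the groups. Stat3 (ENSMUSG00000004040.17, chromosome 11, 100775924 to 100830366, minus strand) had 590 and 639 counts in DMSO against 1572 and 1639 after NEDD8i, which is 84.0 and 115 CPM against 194.5 and 196.2 CPM. The groups did not overlap. The log2 fold change was 0.97 (standard error 0.30, adjusted p = 0.169 in edgeR), from 0.75 without DMSO replicate 1 to 1.24 without DMSO replicate 2. Stat3 shares 72 exon bases at its end with the opposite-strand gene Stat5a, which had 33 to 48 counts per library. How reads in those bases were counted is not given, so these counts do not show what the overlap took from Stat3. Socs3 (ENSMUSG00000053113.4, chromosome 11, 117856905 to 117860012, minus strand), the feedback gene with the STAT motif shown above, had 208 and 156 counts against 202 and 255. In CPM these were 29.6 and 28.1 in DMSO against 25.0 and 30.5 after NEDD8i, with overlapping groups. Its log2 fold change was -0.06 (standard error 0.29, adjusted p = 0.946 in edgeR), with an unadjusted 95% interval of -0.72 to 0.60, so that a fold from 0.608 to 1.52 was not set apart from none. Without NEDD8i replicate 1 the estimate was 0.10.

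Taking the 8 tested members as a set, 4 had both NEDD8i libraries above both DMSO libraries, 2 had both below and 2 overlapped. Over all tested genes, 25.0% lay above and 22.9% below in this way, and nothing is read from the members' counts, since the comparison chose them. The median log2 fold change of all tested genes was 0.00, and with library sizes not scaled by TMM it was -0.22, without turning the sign of any tested member.

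**Figure D3:**
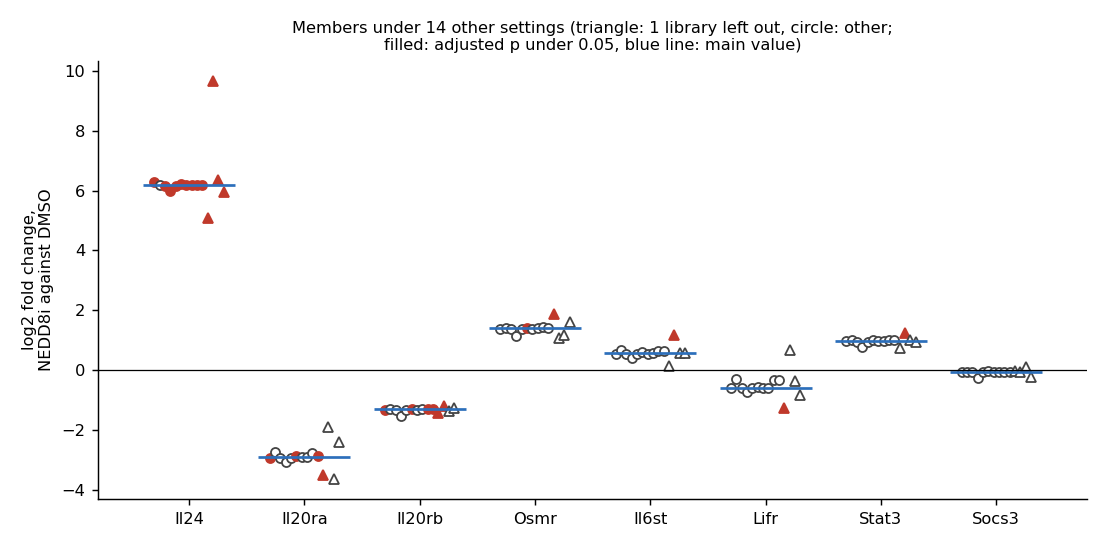
Log2 fold change of the 8 tested members (NEDD8i against DMSO) in the edgeR fit described here (blue line) and under 14 other settings, triangles where 1 library was left out and circles for the others, filled where the adjusted p was under 0.05. Il24 lies between 5.09 and 9.67 throughout, Il20ra and Il20rb stay below 0, and Lifr runs from -1.26 to 0.65.

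The other ligands of these receptors were sparse apart from Clcf1. Of 10 IL-6 family cytokines, 2 had enough counts to test, and 0 passed in edgeR or limma-voom and 1 in DESeq2. DESeq2 called 2.17% of the genes it adjusted higher. At an unadjusted p under 0.05, 1 was higher, beside 8.62% of all tested genes. Clcf1, a ligand of the ciliary neurotrophic factor receptor that uses gp130 and LIFR, had 2 and 13 counts in DMSO against 91 and 100 after NEDD8i. Its groups lay far apart, with a log2 fold change of 3.20 (standard error 0.71, adjusted p = 0.0773 in edgeR). Clcf1 did not reach the level of the filter on low counts in both DMSO libraries, so it entered the test through the NEDD8i group. It passed in DESeq2 (adjusted p = 0.00462), without the filter on low counts, with the crossed replicate block, and when either DMSO library was left out, with a log2 fold change of 2.29 without the first and 5.29 without the second. When either NEDD8i library was left out it did not pass (edgeR adjusted p = 0.355 and 0.318). Cntf, the other tested ligand, had 5 and 21 counts against 15 and 18 and overlapped between groups. The ligands with the best known roles in skin, named after their values were seen, were close to absent: Osm had 0 and 3 counts in DMSO against 7 and 0 after NEDD8i, Lif 0 and 4 against 0 and 3, Il6 3 and 0 against 3 and 3, and Il31 none.

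Other receptor chains of the IL-6 family gave 0 of 4 tested genes past the threshold in edgeR, DESeq2 or limma-voom, with a median log2 fold change of -0.48. At an unadjusted p under 0.05 there was 1 lower, beside 7.87% of all tested genes. Il6ra, the IL-6 binding chain, was at 27.1 and 61.0 CPM in DMSO against 21.2 and 16.0 CPM after NEDD8i, without overlap (log2 fold change -1.24, standard error 0.41, adjusted p = 0.183 in edgeR). Without DMSO replicate 1 it stood at -1.73, and with DMSO replicate 2 left out instead it stood at -0.52. Il11ra1, the IL-11 receptor chain, was at 31.1 and 38.8 CPM against 20.04 and 25.02 CPM, also without overlap (log2 fold change -0.63, standard error 0.30, adjusted p = 0.351 in edgeR).

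Kinases, other STATs and brakes of the pathway gave no call in the edgeR fit with all libraries. Of 8 tested Janus kinases and other STATs 0 passed in edgeR, DESeq2 or limma-voom. At an unadjusted p under 0.05 there was 1 higher, beside 8.62% of all tested genes, and the median log2 fold change was 0.12. Jak1, the kinase bound by gp130, was at 107.9 and 205.3 CPM in DMSO against 232.4 and 244.7 CPM after NEDD8i. Its log2 fold change was 0.61 (standard error 0.36, adjusted p = 0.456 in edgeR), with 0.21 without DMSO replicate 1 and 1.16 without DMSO replicate 2. Stat6, which serves IL-4 and IL-13, was at 19.6 and 40.8 CPM against 29.6 and 29.9 CPM. Jak2, named after its values were seen, had 49 and 55 counts against 163 and 177 without overlap (log2 fold change 1.29, standard error 0.35, adjusted p = 0.128 in edgeR). Of 15 other SOCS, PIAS and phosphatase genes 0 passed in those tools, and the median was 0.21. At an unadjusted p under 0.05 there was 1 higher, beside the same 8.62%. With DMSO replicate 2 left out, 2 of the kinases and STATs were higher, as was 1 without the filter on low counts, and with DMSO replicate 1 left out 1 of the brakes was lower. The phosphatase gene Ptpn1 stood at 0.30 (SE 0.28) and Ptpn11 at 0.06 (SE 0.28) on the log2 scale, the latter at -0.14 when library sizes were not scaled.

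The list for the cullin 5 ligase that SOCS proteins recruit gave 0 of 7 genes past the threshold in edgeR, DESeq2 or limma-voom. At an unadjusted p under 0.05 it gave 0, beside 8.62% of all tested genes higher and 7.87% lower. The median log2 fold change of the 7 genes, Nedd8 among them, was 0.21. With DMSO replicate 1 left out, 1 was higher. Cul5, the scaffold of the ligase, had 538 and 416 counts in DMSO against 719 and 722 after NEDD8i. This was a log2 fold change of 0.21 (standard error 0.27, adjusted p = 0.765 in edgeR). Nedd8, the modifier in the compound's name, had 920 and 575 counts against 1221 and 1004 (log2 fold change 0.21, standard error 0.30, adjusted p = 0.792 in edgeR). Both turned to -0.01 and -0.03 when library sizes were not scaled. These are transcript levels and say nothing of the attachment of NEDD8 to the cullin.

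Of the STAT3 target genes, Bcl3 alone passed the threshold. Among 16 tested of 20 listed, 1 was called higher, beside 0.667% of all tested genes, 0 were called lower and 15 did not pass. The median log2 fold change was 0.29, and 12 of the 16 were positive, beside 49.9% of all tested genes. Both NEDD8i libraries lay above both controls for 6 and below for 3, beside 25.0% and 22.9% of all tested genes. Bcl3, an atypical IkB protein that STAT3 and NF-kB both induce, had 78 and 82 counts in DMSO against 774 and 676 after NEDD8i, or 11.1 and 14.8 CPM against 95.8 and 80.9 CPM. Its log2 fold change was 2.77 (standard error 0.31, adjusted p = 0.00938 in edgeR), and it passed under all 14 alternative settings. Hif1a, the hypoxia factor subunit, named after its values were seen, had 329 and 354 counts against 1206 and 1176 and narrowly missed (log2 fold change 1.39, standard error 0.30, adjusted p = 0.0732 in edgeR). Of the other listed targets, also named after their values were seen, Cebpb stood at a log2 fold change of 0.95 (SE 0.31), Il4ra at 0.89 (SE 0.35) and the survival gene Mcl1 at 0.67 (SE 0.28), each with both NEDD8i libraries above both controls. Birc5, survivin, stood at -0.73 (SE 0.33) with both below. The kinase gene Pim1 (0.26, SE 0.31) and Junb (0.11, SE 0.42) overlapped between groups, and the acute-phase genes Lcn2 and Saa3 had at most 3 counts in any library. Targets higher numbered 5 without DMSO replicate 1, beside 5.62% of all genes, and 2 with DESeq2 or in the fit that lacked DMSO replicate 2, beside 2.17% and 5.09%. At an unadjusted p under 0.05, 5 were higher, beside 8.62% of all genes, and 0 lower.

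Keratinocyte genes that IL-20, IL-22 or oncostatin M are known to raise gave the most calls of the lists. Of 16 tested, 7 were called higher, beside 0.667% of all tested genes, 0 were called lower and 9 did not pass. In DESeq2, limma-voom or at an unadjusted p under 0.05, 0 fell. All 16 had a positive log2 fold change, beside 49.9% of all tested genes, with a median of 3.03. Mmp10, Sprr2d and Defb14, with at most 3 counts in either DMSO library, entered the test only through their level in the NEDD8i group. Their sign could then only be positive. Mmp3, S100a9, Krt6b, S100a7a and Cxcl1 did not reach the level of the filter on low counts in both DMSO libraries. Their entry thus rested on the NEDD8i group too. The list also holds wound-response genes and was drawn up with results for many of its genes known, so it is no separate evidence of direction. The calls of smallest p were Sprr2d, a cornified envelope precursor (log2 fold change 5.40), the matrix proteases Mmp10 and Mmp3, and the wound keratin Krt6a (3.38). Mmp10 had 0 and 1 counts in DMSO against 139 and 119 after NEDD8i, and the ratio was 197 (95% counting interval 35.1 to 7819). Named after its values were seen, Tgfa, an EGF receptor ligand, had 50 and 24 counts against 282 and 324 (log2 fold change 2.67, standard error 0.36, adjusted p = 0.0162 in edgeR). S100a8 and Defb14 (log2 fold changes 2.28 and 4.24) were the remaining calls. Without DMSO replicate 1 the list gave 13 higher, beside 5.62% of all genes, and with library sizes not scaled 4, beside 0.334%.

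Of 12 tested genes that these cytokines are known to lower, 0 were called higher and 2 lower, beside 0.114% of all tested genes called lower. In DESeq2, limma-voom or at an unadjusted p under 0.05, 0 rose. DESeq2 called 1.57% of the genes it adjusted lower. Of the 12, 11 had a negative log2 fold change, with a median of -1.40, while 49.9% of all tested genes had a positive one. Flg2, filaggrin 2, was at 159.9 and 90.6 CPM in DMSO against 6.56 and 12.8 CPM after NEDD8i (log2 fold change -3.69). Lor, loricrin, was at 338.5 and 110.6 CPM against 24.6 and 29.6 CPM (log2 fold change -3.05, edgeR adjusted p = 0.0377) and was lost with limma-voom, without scaling, without the robust option, with the replicate block, and when either NEDD8i library was left out. Without DMSO replicate 1, 8 genes were lower, beside 4.81% of all genes. Leaving out DMSO replicate 2 gave 6 lower, beside 5.61%, and 1 higher, DESeq2 gave 6 lower, and 1 was lower when either NEDD8i library was left out, without the robust option, or with library sizes not scaled.

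Type 2 and IL-17 cytokines were sparse. Il4, Il17a and Il17c had 0 counts, and, named after their values were seen, Il13 had 6 and Il17f 5, all in NEDD8i replicate 1. Of 6 tested genes of that list 0 passed in edgeR, DESeq2 or limma-voom, and the median log2 fold change was 0.73. At an unadjusted p under 0.05 there was 1 higher, beside 8.62% of all tested genes. When either DMSO library was left out, 1 was higher. Il17rc, an IL-17 receptor chain, was at 13.1 and 37.0 CPM in DMSO against 29.8 and 28.0 CPM after NEDD8i, and overlapped. Il13ra1, a receptor chain for IL-13, was at 15.9 and 21.1 CPM against 32.5 and 24.3 CPM (log2 fold change 0.62, standard error 0.32, adjusted p = 0.393 in edgeR), without overlap.

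**Figure D4:**
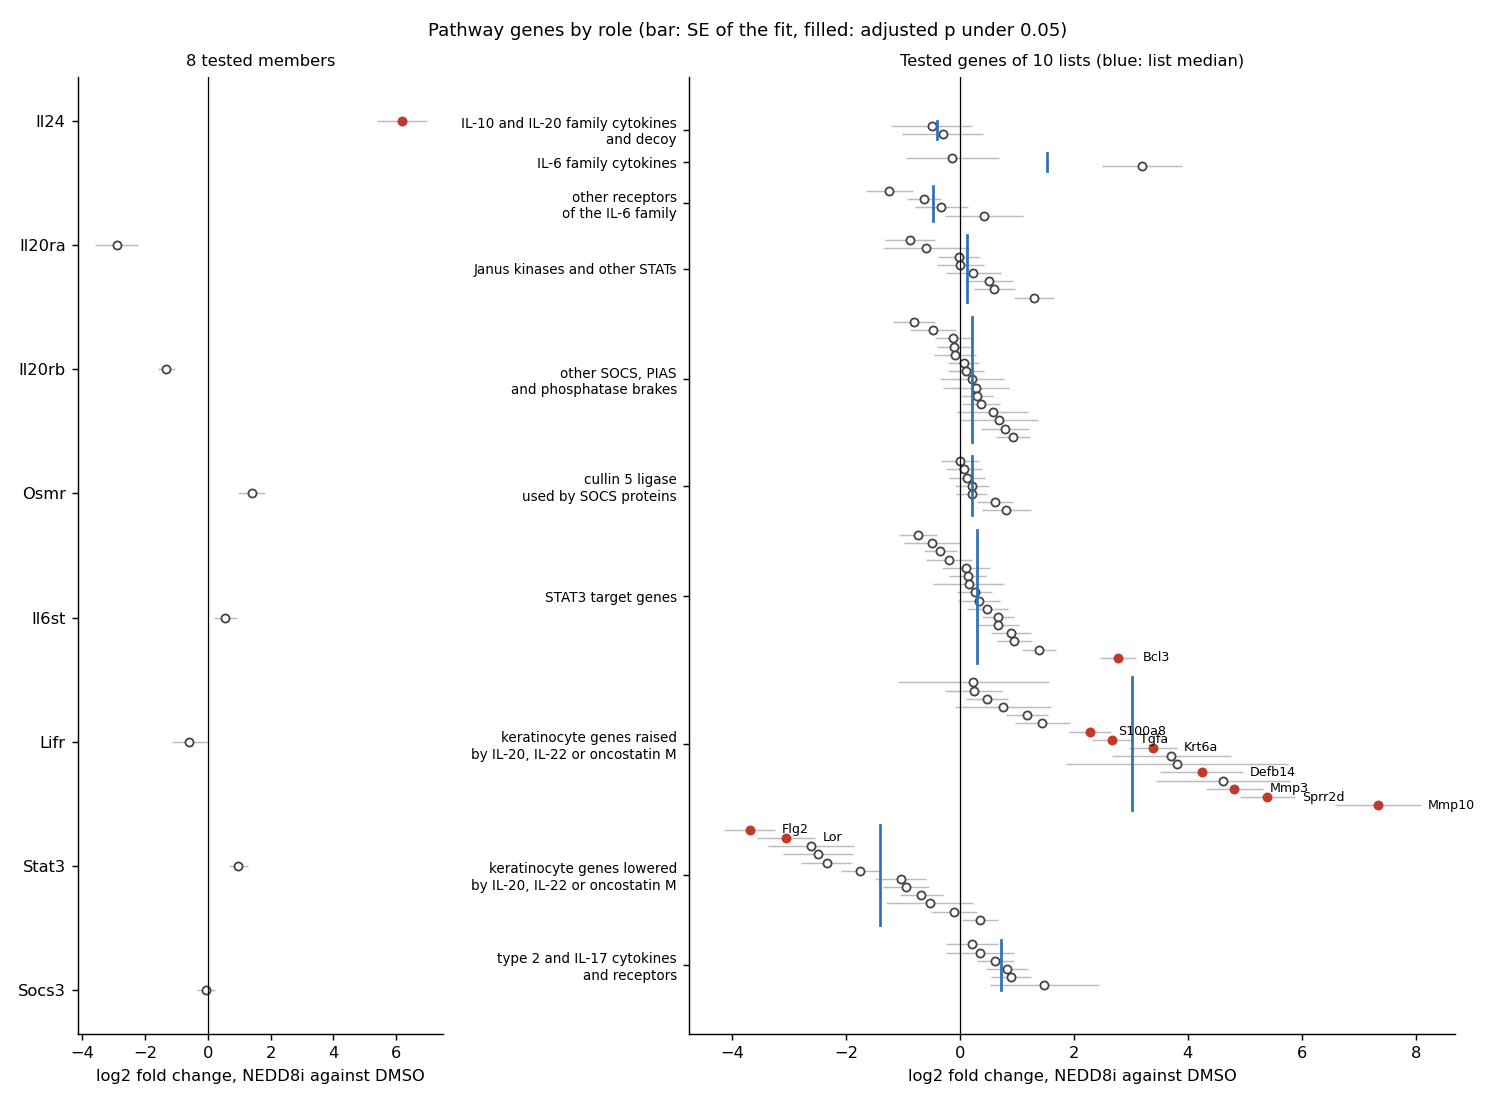
Log2 fold changes (NEDD8i against DMSO) of the 8 tested members (left) and of the tested genes of 10 lists (right), with bars for the SE of the fit, filled points for an adjusted p under 0.05 and blue lines for list medians. Il24, Bcl3, 7 genes of the raised list and 2 of the lowered list pass, and no kinase, brake or cullin 5 gene does.

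Il24 is made by keratinocytes and by several immune cells, and of the immune markers those of Langerhans and dendritic cells were the most abundant. The 8 T cell markers held 0.00786% and 0.00988% of counts outside ribosomal RNA in DMSO and 0.00646% and 0.00627% after NEDD8i, with Trac at 0 in all libraries. The 8 monocyte and macrophage markers held 0.00648% and 0.00455% against 0.00818% and 0.00734%, all 8 having a count. Of the 8 neutrophil markers 4 had 0 counts in every library, Ly6g, Camp, Ltf and Ngp, and the rest summed to 0.000425% and 0.00149% against 0.00233% and 0.00133%. The 6 Langerhans and dendritic cell markers held 0.039% and 0.0322% against 0.0498% and 0.0547%. Of 5 tested, 3 were higher in both NEDD8i libraries and 1, Itgax, lower (4.27 and 5.05 CPM against 4.08 and 4.19 CPM). Of 5 tested monocyte and macrophage markers 3 were higher in this way and 0 lower, beside 25.0% and 22.9% of all tested genes. Csf1r (log2 fold change -0.22) and Adgre1, which was not tested, overlapped between groups. Cd207, langerin, was at 16.9 and 4.51 CPM in DMSO against 38.4 and 26.0 CPM after NEDD8i (log2 fold change 1.57, edgeR adjusted p = 0.21), and C1qa, a macrophage complement gene, at 4.98 and 5.41 CPM against 15.5 and 11.8 CPM (1.39, adjusted p = 0.131). Fibroblast markers held 0.0138% and 0.00171% against 0.00804% and 0.018%, and mast cell markers 8 to 30 reads. The fibroblast sum was high in DMSO replicate 1 through Dcn, which had 345 reads there, while the list median log2 fold change was 2.35. In both NEDD8i libraries 4 of 5 tested fibroblast markers were higher, beside 25.0% of all tested genes. Of these, Dpt, dermatopontin, passed (log2 fold change 3.29, edgeR adjusted p = 0.0446), and the collagen genes Col3a1, Col1a2 and Col1a1 stood at 3.10, 2.35 and 2.11. Dpt and Col3a1, with at most 7 counts in either DMSO library, entered the test only through their level in the NEDD8i group. Cd207, C1qa, Itgax, Csf1r, Adgre1 and these fibroblast genes were named after their values were seen. Macrophage and Langerhans sums and most fibroblast markers were thus higher in both NEDD8i libraries and T cell sums lower, and their part in the level of Il24 was not tested.

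The genes whose pattern over the 4 libraries was nearest to that of Il24 were themselves genes with few reads in control skin, at most 16 in a library. Il24 was chosen because it stood out, so a large difference in its nearest genes follows from the measure and is no separate result. By the distance between library-centred log2 CPM, the nearest of 10511 candidates was Sprr2h at a distance of 0.20, with 6 and 16 counts in DMSO against 415 and 581 after NEDD8i. Next came Mmp3 at 0.71, Mmp10 at 0.77, Sprr2d at 0.79 and Slpi, a secreted protease inhibitor, at 0.95 with 0 and 0 counts against 59 and 111. Distances of genes with so few control reads depend on the prior count of 2 added before the logarithm, and reads may be shared among the similar Sprr2 genes.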

How the data were processed

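Libraries were made with a 3′ tag kit (QuantSeq FWD), per the labels' protocols. What the authors deposited is 1 table of raw counts, not normalized, with exon coordinates and exon length in bases. Per the submitters' processing notes, STAR, featureCounts and DESeq2 were used, their versions, settings and use of strand being not given in the sources used here. Those notes name GRCm38 and GRCm39. Only 2.7% of 52029 matched genes started at the GRCm38 position of GENCODE M21, so coordinates are taken to be GRCm39. All 4 sample columns were matched by name and 0 were left unused. No library was a duplicate (chi-square per degree of freedom 24.1 to 68.5).

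Counts were tested in R 4.3.3 with edgeR 4.0.16: filterByExpr defaults (minimum count 10, total 15), TMM, the robust quasi-likelihood F test on the group, and Benjamini-Hochberg adjustment over 11388 genes at 0.05. SE is the log2 fold change divided by the square root of F. Its median was 0.42. A prior count of 2 went into log2 CPM. Intervals and floors cover counting error only, no molecular identifiers being mentioned. The steps were tested on simulated data.

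Members and lists were chosen with earlier results of these data known. Named genes were all 10 members, from each list up to 4 past the threshold by smallest p or otherwise the 2 of highest mean CPM, genes within 250 kb of Il24, and the 5 nearest in pattern to Il24. The other genes named are said to have been chosen after their values were seen. Alternatives were DESeq2 1.42.0, limma-voom (limma 3.58.1), RLE factors, no TMM scaling, omission of 3 ribosomal RNA genes, no filter, a fixed filter (10 counts and a CPM above 1 in 2 libraries), no robust option, a block for the replicate number, and leaving out each library. A crossed block was added after seeing the data.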

Additional observations from a re-analysis of the deposited data

How the results depend on the processing

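Among 112 values of the 8 tested members under 14 alternatives, 94 kept direction and side of the threshold, 15 passed where they had not, 1 was lost (Il24 with limma-voom, log2 fold change 6.17, adjusted p = 0.0575) and 2 turned sign (Lifr to 0.65 without DMSO replicate 2, in a range from -1.26 over the libraries left out, and Socs3 to 0.097 without NEDD8i replicate 1, in a range from -0.22). Members higher, 1 as reported, numbered 0 with limma-voom and 2 without a filter, and 1 to 3 with a library left out. Members lower, 0 as reported, numbered 2 with DESeq2, without a filter and with the crossed block, and 0 to 3 with a library left out. Leaving out a library moved Il24 between 5.09 and 9.67. A group left with 1 library has no spread of its own and is assumed to vary like the other.

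Over all genes, 76 higher and 13 lower as reported, the counts were 227 and 165 with DESeq2 and 385 and 318 without a filter, 45 and 3 without the robust option, and 38 higher without TMM scaling. With a library left out they ran from 41 to 692 higher and 3 to 712 lower. The cause was not tested. The labels give no pairing, and replicate 1 minus replicate 2 differences of DMSO and NEDD8i correlated at -0.13 across genes. With the replicate block 182 genes were higher and 107 lower, and 1 member was lower. With the crossed replicate block 251 were higher and 242 lower.

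Among list genes not past the threshold in the fit reported, signs also turned, and none of the turned values passed. Stat6 went to 0.089 with limma-voom, 0.013 without a filter, 0.067 with the replicate block and 0.068 with the crossed block, and ran from -0.47 to 0.62 over the libraries left out. Cntf went to 0.38 with limma-voom, 0.13 with the replicate block, 0.15 with the crossed block. Over the libraries left out, Cntf ran from -0.92 to 1.49, Ifnlr1 from -0.96 to 1.13, Il22ra2 from -1.13 to 0.81, Il17rc from -0.37 to 1.16 and Ptpn11 from -0.077 to 0.22. Il17rc passed at its upper end, without DMSO replicate 2. Without TMM scaling, Ptpn11 went to -0.14, Cul5 to -0.010 and Nedd8 to -0.028. Depth limits Il22ra1, Il10rb, Il19, Il10 and most ligands, which were at or near the 3-count floor.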
